A study of Arabidopsis thaliana with 23 samples.

Results

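Genes of *Arabidopsis thaliana* were sorted by whether the repressive mark H3K27me3 (trimethylation of lysine 27 on histone H3) was present in *axe1-5* seedlings with or without methyl jasmonate (MeJA). A gene had the mark in a list when a deposited peak overlapped it by at least 1 bp. A gene was called gained when both +MeJA lists had a peak and neither −MeJA list did, lost in the reverse case, and stable when all 4 lists had one. Of 37899 annotated nuclear genes, 116 were gained (0.306% of all genes), 5 were lost (0.0132%) and 3338 were stable (8.81%), together 3459 genes. No jasmonate gene of the 64 examined was among the gained or lost genes, and 16 of them were stable. At shares of 0.306% and 0.0132%, a set of 64 genes would be likely to hold no gained or lost gene. The absence therefore does not set jasmonate genes apart. A gene in neither list of a side had no listed peak there, which is not the same as having no mark.

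H3K27me3 is written by Polycomb repressive complex 2 and is spread over the bodies of genes that are kept silent, among them many regulators of flower, meristem and embryo development. It is removed by Jumonji-type demethylases such as REF6 and ELF6. HDA6, the histone deacetylase that *axe1-5* lacks, removes acetyl groups from histone tails and belongs to the repressive machinery that acts on jasmonate genes with the JAZ proteins. MeJA is converted in the plant to jasmonoyl-isoleucine, which is bound by the receptor COI1 and leads to destruction of the JAZ repressors.

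All 4 lists came from the *hda6*/*rpd3b* mutant *axe1-5*, so the comparison was between treatments within 1 mutant genotype. Whole seedlings aged 12 days were treated with 50 µM MeJA or mock treated (0 µM) for 3 h, with 2 biological replicates per treatment, named here +MeJA 1, +MeJA 2, −MeJA 1 and −MeJA 2. Lists of the WT (the DR5 line in the Col-0 background) and of H4ac (acetylated histone H4) were used only to describe the same genes further. Whole seedlings mix many cell types, so a mark in fewer cells and less mark per cell cannot be told apart.

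Some sequences at the summits of gained and stable genes are given first, because 2 short motifs have been linked to Polycomb recruitment in Arabidopsis. They are GAGAGA, searched on both strands as GAGAGA or TCTCTC, and the telobox AAACCCTA with its reverse complement. Each window is 200 bp around the summit of a peak, written 5′ to 3′ on the strand of the gene with TAIR10 coordinates, and the capitals mark the motifs. *CUC1* and *AT14A* were gained, and *STM*, *CYP78A5*, *JOX3* and *ST2A* were stable. They were picked after their values had been seen.
CUC1, chr3:5111023-5111222, plus strand, coding exon, summit of +MeJA 1: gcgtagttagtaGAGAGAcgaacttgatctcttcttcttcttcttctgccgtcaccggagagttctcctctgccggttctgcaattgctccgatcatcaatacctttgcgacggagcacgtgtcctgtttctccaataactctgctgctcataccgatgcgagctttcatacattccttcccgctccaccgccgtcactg
AT14A, chr3:10547944-10548143, plus strand, coding exon, summit of +MeJA 1: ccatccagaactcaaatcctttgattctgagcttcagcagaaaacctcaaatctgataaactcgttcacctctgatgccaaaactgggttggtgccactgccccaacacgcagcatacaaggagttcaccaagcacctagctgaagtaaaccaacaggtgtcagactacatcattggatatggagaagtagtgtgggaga
STM, chr1:23061098-23061297, minus strand, mostly intron, summit of −MeJA 2: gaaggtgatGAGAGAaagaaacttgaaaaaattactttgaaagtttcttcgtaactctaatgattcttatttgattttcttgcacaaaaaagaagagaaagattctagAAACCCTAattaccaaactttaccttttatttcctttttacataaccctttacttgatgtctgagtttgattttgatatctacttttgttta
CYP78A5, chr1:4703256-4703455, minus strand, coding exon, summit of −MeJA 2: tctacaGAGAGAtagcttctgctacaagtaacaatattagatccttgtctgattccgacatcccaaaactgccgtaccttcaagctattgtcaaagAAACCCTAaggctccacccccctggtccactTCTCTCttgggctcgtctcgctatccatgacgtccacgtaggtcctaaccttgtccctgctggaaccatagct
JOX3, chr3:20768808-20769007, minus strand, coding exon, summit of +MeJA 1: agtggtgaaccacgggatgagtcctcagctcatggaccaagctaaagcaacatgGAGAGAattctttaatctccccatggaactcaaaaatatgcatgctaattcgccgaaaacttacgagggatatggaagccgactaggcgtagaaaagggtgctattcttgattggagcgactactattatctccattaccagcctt
ST2A, chr5:2175206-2175405, minus strand, coding exon, summit of +MeJA 1: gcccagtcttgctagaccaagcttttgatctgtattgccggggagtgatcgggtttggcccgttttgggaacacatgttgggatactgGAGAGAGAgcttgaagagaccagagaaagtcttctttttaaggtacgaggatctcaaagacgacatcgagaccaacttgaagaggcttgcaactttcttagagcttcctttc

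The window of *STM* held both motifs and that of *CYP78A5* held a telobox and 2 GAGAGA matches. *CUC1* and *JOX3* had a GAGAGA match each, *ST2A* had an overlapping pair of them, and *AT14A* had neither motif. Over the distinct peaks at gained genes, GAGAGA was found in 23 of 110 summit windows of +MeJA 1 (20.9%) and 25 of 102 of +MeJA 2 (24.5%). At stable genes the share was 21.9% to 24.2% over the 4 lists, and in all 594683 windows of this length on the nuclear chromosomes it was 17.2%. The telobox was in 3.64% and 3.92% of the windows at gained genes, in 4.82% to 5.63% at stable genes and in 2.62% of all windows. Mean GC content was 43.1% and 44.7% at gained genes, 41.4% to 45.9% at stable genes and 36% over all windows, and its part in these shares was not tested.

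The 4 lists differed in kind before any gene was considered. The fragment length d that MACS modelled, as written in the file headers, was 61 bp in +MeJA 1, 209 bp in +MeJA 2, 282 bp in −MeJA 1 and 53 bp in −MeJA 2, where the tags were 51 bp long. Each treatment thus had 1 list with a short model and 1 with a long model, and the replicate numbers were crossed between them. The short models were close to the tag length. The libraries kept 5464316, 5540663, 8879066 and 1439377 tags in the same order after removal of duplicate positions, so −MeJA 1 was 6.17-fold deeper than −MeJA 2. In −MeJA 1, 68% of 27408978 tags were duplicates. Each list had its own input.

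**Figure D1:**
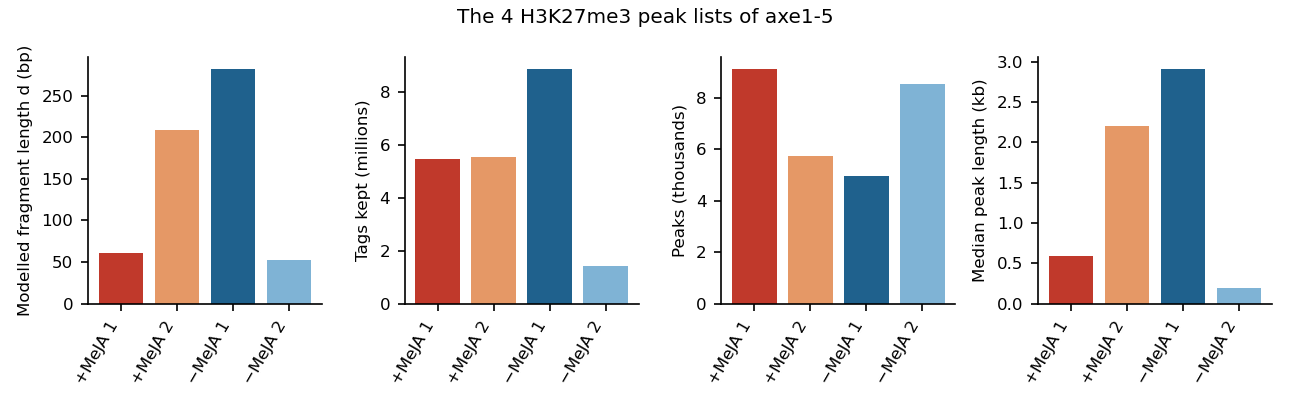
Modelled fragment length d (bp), tags kept after duplicate removal, number of peaks and median peak length (kb) in the 4 H3K27me3 lists of axe1-5, 1 bar per list. The long-model lists +MeJA 2 and −MeJA 1 had fewer and longer peaks (medians of 2202 and 2911 bp) than the short-model lists (596 and 190 bp), in both treatments.

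The number and length of peaks and the share of summits in genes separated the lists by model length, and median fold enrichment separated them by treatment. Tags kept also separated the lists by model length (5464316 and 1439377 in the short-model lists, 5540663 and 8879066 in the long-model lists). The part of depth in these measures was not tested. There were 9114 and 5742 peaks in the +MeJA lists and 4944 and 8540 in the −MeJA lists. Median peak length was 596 and 2202 bp with MeJA and 2911 and 190 bp without, that is 3.69-fold and 15.3-fold longer in the long-model list of each treatment. Covered length was 8.39 and 17.55 Mb with MeJA and 19.32 and 2.45 Mb without. For number of peaks, covered length, median length and the share of summits in genes (73.1% and 84.7% against 85.6% and 74.2%), the ranges of the treatments overlapped and those of the short-model and long-model lists did not. Exact permutation tests (two-sided) between the treatments gave p = 0.667, 1.0, 1.0 and 0.667, and 0.33 is the smallest p that 2 lists against 2 allow. Genes with a peak made up 15.7% and 21.3% of all genes with MeJA and 22.6% and 9.37% without. Median fold enrichment over input, a ratio that MACS gives for each peak, was 6.43 and 5.71 with MeJA and 6.62 and 12.39 without. Here the treatments did not overlap and the model lengths did (exact permutation test, two-sided, p = 0.33, the smallest possible). In −MeJA 2, 32.8% of peaks had a score of at least 100, against 72.7% to 86.5% in the other lists. The score is 10 times the −log10 of the MACS p-value, and no peak under a score of 50 is listed.

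**Figure D2:**
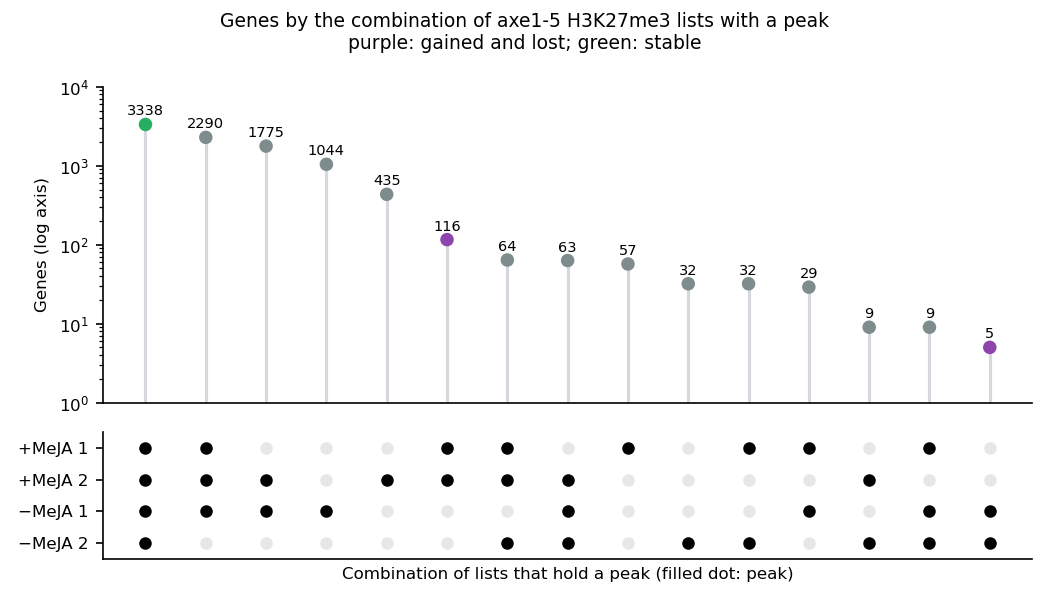
Number of genes (log axis) for each combination of the 4 axe1-5 H3K27me3 lists, with filled dots below for the lists that hold a peak. The 3338 stable genes (green) are the most frequent combination, 2290 genes lack a peak in −MeJA 2 alone, and the 116 gained and 5 lost genes (purple) are among the rarer ones.

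A peak in 1 or more of the 4 lists was found at 9298 genes (24.5%), and the combinations in the plot of gene numbers show where the lists parted. After the stable genes, the largest numbers were 2290 genes that lacked a peak in −MeJA 2 alone and 1775 genes marked in the long-model lists alone. Only 64 genes lacked a peak in −MeJA 1 alone. When the lists were compared in pairs of like model length, the short pair (+MeJA 1 and −MeJA 2) gave 2492 gained and 109 lost genes. The long pair (+MeJA 2 and −MeJA 1) gave 624 gained and 1087 lost genes. The direction with more genes was therefore opposite in the pairs, and in each pair it was the deeper library that had more marked genes. The 116 gained genes are those common to both pairs. Without −MeJA 1 the rule gave 2406 gained genes, without −MeJA 2 it gave 180 gained and 1049 lost genes, and without +MeJA 1 it gave 551 gained genes.

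The antibody label was examined with genes known as Polycomb targets. Of 23 such genes, 20 were stable. The flower regulator *AG* had fold enrichments of 12.56 and 12.47 with MeJA and 14.29 and 16.2 without, the meristem gene *STM* had 12.96, 12.71, 13.94 and 21.24, and the flowering repressor *FLC* had 12.96, 11.66, 13.1 and 21.24, always in the order +MeJA 1, +MeJA 2, −MeJA 1, −MeJA 2. The embryo regulator *LEC1* was missing in −MeJA 2 alone (6.92, 7.25 and 7.43 in the others), *PHE1* was in the short-model lists alone (6.48 and 10.62), and *CUC1* was gained. None of 12 constantly transcribed genes, such as those for actin and ubiquitin, had a peak in any of the 4 lists, and neither had *HDA6* itself.

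Gained genes were mostly short genes with modest peaks. Their median length was 1348.5 bp, against 1630 bp for stable genes and 1796 bp for all genes. Of the 116, 94 were protein coding (0.343% of all protein-coding genes), 12 were pseudogenes and 10 were non-coding RNA genes. Their fold enrichment ranged from 3.24 to 29.17 in +MeJA 1 (median 5.27) and from 2.83 to 17.11 in +MeJA 2 (median 4.275), where stable genes had medians of 8.91 and 8.835. These values come from the contrast that chose the genes and are given as a description. The median gained gene was covered by peaks over 23.2% of its length in +MeJA 1 and 84.5% in +MeJA 2. Chromosomes 3 and 4 held 31 and 30 of them (26.7% and 25.9%), compared with 20.1% and 15.4% of all genes.

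Many gained genes lay close to the limit of detection or close to peaks of the untreated lists. The lower of the +MeJA scores was under 60 for 23 genes and at least 100 for 37, with a minimum of 50.3 and a median of 79.4. On the other side of the limit, 34 of the 2290 genes missing in −MeJA 2 alone had a −MeJA 1 score under 60, the lowest at 50.01. Of the 64 genes missing in −MeJA 1 alone, 13 had a −MeJA 2 score under 60, the lowest at 50.05. A −MeJA peak was within 1000 bp of 37 gained genes and more than 10000 bp from 22, at a median distance of 2272 bp.

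Some gained genes lay in clusters of neighbouring genes. In 11 stretches, 3 or more consecutive genes had peaks in both +MeJA lists and none in −MeJA 1, and these held 78 genes, 25 of them gained. The stretches were found after the values had been seen. Of the 10 gained genes with the highest lower score, 9 were within 10 kb of a gene that lacked a peak in −MeJA 1 alone, and the exception, *AT1G40115*, had the highest lower score of all. The 22 gained genes with such a neighbour had a median lower score of 298.4, against 73 for the other 94.

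The longest stretch was on chromosome 4, from *AT4G20560* to *AT4G20707* (11058211 to 11103359, TAIR10), with 20 genes over 45.1 kb. Most of its genes are annotated as cysteine-rich secretory proteins or receptor-like kinases, several of them with the DUF26 domain, which defines a plant family of extracellular and membrane proteins with roles in defence. In it 7 genes were gained and 13 lacked a peak in −MeJA 1 alone. Peaks covered 57.7% of the stretch in +MeJA 1 (37 peaks), 92.6% in +MeJA 2 (11 peaks) and 14.9% in −MeJA 2 (33 peaks), and −MeJA 1, the deepest library, had none. The 33 peaks of −MeJA 2 held 480 tags and reached a fold enrichment of 19.47. In WT, 1 to 3 peaks covered 1.31% and 6.9% of the stretch in the −MeJA lists and 1.27% in the +MeJA list.

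**Figure D3:**
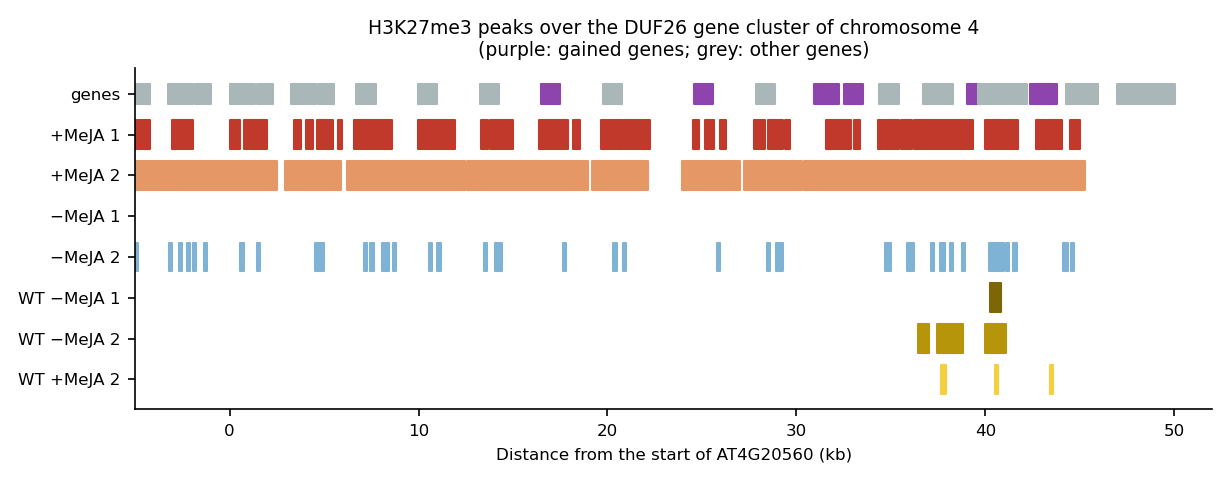
Position of H3K27me3 peaks over the DUF26 gene cluster of chromosome 4 (distance from the start of AT4G20560 in kb), 1 row per list, with genes at the top (purple gained, grey others). Both +MeJA lists cover most of the cluster, −MeJA 1 has no peak, −MeJA 2 has 33 short peaks that miss the 7 gained genes, and the WT lists have 1 to 3 peaks.

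Gained genes of the cluster were those that fell between the short peaks of −MeJA 2. *AT4G20690*, uncharacterized, had fold enrichments of 10.13 in +MeJA 1 and 10.38 in +MeJA 2 and was 114 bp from a −MeJA 2 peak. The receptor-like kinase *AT4G20650* had 8.32 and 10.38, and its neighbour *AT4G20645* had 7.29 and 10.38. These genes shared 1 peak in +MeJA 2 and are not independent calls. *AT4G20645* and *AT4G20650* also shared 1 peak in +MeJA 1. The secretory-type *AT4G20610* and *AT4G20630* both had 6.48 and 6.53, at 142 and 199 bp from a −MeJA 2 peak, while the nearest −MeJA 1 peak was 33392 and 25287 bp away. Family members of this cluster are similar in sequence, reads that match several copies cannot be assigned with certainty, and values of single copies are uncertain. The H4ac list of *axe1-5* −MeJA replicate 1, made against the same input, had peaks at 7 of the 20 genes.

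Other stretches held gained genes of varied products. On chromosome 2, between *AT2G19000* and the acyltransferase gene *SHT*, the RALF peptide genes *RALFL11* (6.89 and 7.81) and *RALFL12* (6.48 and 7.81) and the GDSL lipase gene *AT2G19050* (8.51 and 7.81) were gained. The other 6 of its 9 genes lacked a peak in −MeJA 1 alone. RALF peptides are small secreted signals that are perceived by receptor kinases. On chromosome 3, the stretch from *AT3G28250* to *AT3G28291* had 4 gained genes of 6. *AT3G28250*, with a carbohydrate-binding X8 domain, had fold enrichments of 10.13 and 11.51, *AT14A*, whose product has similarity to animal integrins, had 10.13 and 11.42, and *AT3G28291* had 11.34 and 11.42. A −MeJA 2 peak lay 561 bp from *AT14A* and 113 bp from *AT3G28291*. On chromosome 1, the lncRNA gene *AT1G07407* (9.19 and 9.56) was 21 bp from a −MeJA 2 peak, in a stretch of 8 genes with 3 gained.

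A single stretch had no peak in either −MeJA list throughout. It covered 8.3 kb of chromosome 3 with *AT3G46890*, annotated as a maternal effect embryo arrest protein (7.29 and 8.04), the copper transporter gene *COPT2* (6.48 and 4.55) and the misc_RNA gene *AT3G07595* (4.46 and 5.71). The nearest −MeJA 1 peak was 8246 bp and the nearest −MeJA 2 peak 25641 bp from *AT3G46890*. At *COPT2*, which encodes a copper importer of the plasma membrane, H4ac was listed at 8.92 and 12.69 with MeJA and at 5.79 and 0 without. A pseudogene near the centromere of chromosome 1, *AT1G40115*, had the highest lower value of the gained genes (29.17 and 14.26), with scores of 3100 in both lists. It belonged to no stretch and was 292 bp from a −MeJA 2 peak.

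The groups by function that follow were formed after the list was known and are counted over all 116 gained genes, those in stretches included. The shares of these functions among all genes were not counted, so the sizes of the groups are a description of the list. Transcription factor genes numbered 9. *CUC1*, a NAC factor that sets organ boundaries in the shoot (chromosome 3, 5109782 to 5111608), had fold enrichments of 6.08 and 4.23 and scores of 82.2 and 109.1. No −MeJA peak was nearer than 21450 bp, whereas its relative *CUC2* was stable (15.39, 12.94, 15.54 and 28.31). *CUC1* also had a peak of 7.67 in WT −MeJA 2. The other NAC gene, *NAC047*, had 4.34 and 4.2. The MYB genes *MYB62*, linked to phosphate starvation, and *MYB43*, linked to secondary walls, had 4.15 and 4.31 and 5.38 and 3.88. *EDF3*, an ethylene-responsive AP2 and B3 factor of the RAV family, had 3.56 and 4.08. The neighbouring B3 genes *AT4G31615* (5.53 and 4.21) and *AT4G31620* (4.4 and 4.21) shared a peak in +MeJA 2. At 5 of the 9 factors, 1 or both WT −MeJA lists also had a peak, and H4ac was in all 4 *axe1-5* lists at 3.

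Growth genes numbered 5. They were the SAUR genes *AT1G17345* (5.26 and 6.53) and *AT4G38860* (4.86 and 3.47), which belong to a family of early auxin-induced growth regulators, *MIZ1* (4.85 and 5.11), which is needed for bending of roots towards water, its relative *AT1G21050* (3.24 and 3.77), and *FAF3* (5.67 and 5.6), of a family that limits shoot meristem size. *MIZ1* was 365 bp from a −MeJA 1 peak. Only 1 of the 5 had a lower score of at least 100.

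Cell wall and extracellular products made up 10 genes, with fold enrichments of 3.51 to 10.13 in +MeJA 1 and 2.83 to 11.51 in +MeJA 2. They included the cell wall invertase gene *ATBFRUCT1* (5.23 and 4.61), which splits sucrose outside the cell, the arabinogalactan protein gene *AGP10* (5.93 and 5.23), the laccase gene *LAC8* (5.27 and 4.55) and the dirigent gene *DIR5* (4.82 and 5.49). *AGP10* overlapped the uncharacterized gene *AT4G09035*, so they shared their peaks and count as 2 genes for 1 region. At 5 of the 10 genes 1 or both WT −MeJA lists had a peak, and only 2 had a lower score of at least 100.

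Metabolic enzymes numbered 15 genes. Glycosyltransferases that act on small molecules were present with *UGT85A1* (5.62 and 5.62), which glucosylates cytokinins, and *UGT72E1* (5.67 and 3.59), of a family that glucosylates lignin precursors. Cytochrome P450 genes were *CYP76C6* (6.89 and 9.19) and *CYP71B32* (4.86 and 4.2). Others were *GolS2*, for the galactinol synthase that makes raffinose precursors under drought (4.46 and 6), the heme oxygenase gene *HO3* (4.56 and 3.96), which acts in chromophore synthesis, and *NYC1*, a chlorophyll b reductase of senescing leaves (4.86 and 3.2). At 5 of the 15 genes the lower score was at least 100, and for *NYC1* it was 52.8.

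Transport genes numbered 7, among them the proton pump gene *HA4* (4.29 and 5.13), the potassium channel gene *KAT3* (4.92 and 4.47), *UMAMIT12* of the amino acid exporter family (5.27 and 3.61) and the metal-binding *HIPP25* (5.01 and 3.64). Genes of the cytoskeleton and secretion included the actin-binding *ADF7* (4.57 and 3.7) and *PRF4* (4.21 and 3.48), which act in pollen, and the exocyst gene *SEC3A* (5.41 and 5.39). *HSP17.6A*, a small heat shock protein (3.57 and 4.46), and *ARI4*, an ARIADNE-type ubiquitin ligase gene (4.86 and 4.78), were among 6 genes of protein folding and turnover. Among receptor-type kinases outside the chromosome 4 cluster, *CRK7* had 6.48 and 3.38. The miRNA gene *MIR156b*, whose product restrains the switch to adult growth, had 4.85 and 3.22 and shared its peaks with the non-coding RNA gene *AT4G30975*.

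Some gained genes did not depend on how overlap was counted. When the summit had to lie in the gene, at least 50% of it had to be covered, 2000 bp upstream were added, a score of 100 or an FDR of 5% was required, or the lists were reduced to equal numbers of peaks, 4 genes were gained each time. They were *AT14A*, *AT3G46890*, the DUF26 gene *AT4G20610* and *AT5G13880*, annotated as a cotton fiber protein (6.15 and 4). Of these, *AT3G46890* and *AT5G13880* had no −MeJA peak within 1000 bp. By summit alone 269 genes were gained, and 88 of the 116 were among them (75.9% of the 116, 32.7% of the 269).

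The 5 lost genes were small marks in −MeJA 2. They were the pseudogene *AT4G06511*, the uncharacterized genes *AT3G43150* and *AT4G09260*, the cysteine-rich peptide gene *LCR15* and the RING/U-box gene *AT4G15975*, and 4 of them lie on chromosome 4. Fold enrichments in −MeJA 1 and −MeJA 2 were 16.73 and 15.93 at *AT4G06511*, 3.69 and 10.62 at *AT3G43150*, and 4.11 and 12.39 at *AT4G09260*. At *LCR15*, of a family of defensin-like peptides, they were 4.88 and 10.62, and at *AT4G15975* they were 10.6 and 8.85. All 5 peaks of −MeJA 2 had scores of 50.5 to 72.2 and held 9 to 12 tags. *AT4G06511* was inside a −MeJA 1 peak of 71426 bp and was 52 bp from a +MeJA peak, and *AT4G15975* was covered over 9.6% in −MeJA 1. None of the 5 had a peak in a WT H3K27me3 list. With a score of at least 100 required there were 0 lost genes.

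Among the stable genes with the strongest marks were regulators of organ formation. The gene with the highest minimum over the 4 lists was *DOT5*, a zinc finger factor linked to vein patterning, with fold enrichments of 16.45, 15.04, 15.27 and 23.42. *CYP78A5*, a P450 that promotes organ growth, had 14.99, 16.09, 15.82 and 21.24. *STY2*, a regulator of style development, had 14.99, 14.46, 16.97 and 19.47. The AP2 factor *DRNL*, which marks new organs, had 14.58, 14.22, 16.66 and 24.77. In the tryptophan branch of glucosinolate synthesis, *CYP79B3* had 14.66, 14.23, 14.32 and 19.47. The values of these genes lay close together in 3 lists and were higher in −MeJA 2, the shallowest, as was the median over all stable genes (8.91, 8.835, 9.645 and 13.92). The pairs *AT5G17080* with *AT5G17090* and *AT4G29630* with *AT4G29640* also belonged to the top 10 and shared peaks, and *AT1G11230*, a putative transmembrane protein, completed it.

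By function, stable genes were frequent in several families of transcription factors and in terpene synthases and cytochrome P450s. Of all protein-coding genes 10.8% were stable, and no test was made of the families. The share was 73.3% for terpene synthases (11 of 15), 35% for MADS-box factors (42 of 120), 33.3% for MYB factors (42 of 126), 33% for cytochrome P450s (72 of 218), 32.7% for NAC factors (34 of 104), 32.1% for homeobox factors (36 of 112), 31.9% for WRKY factors (23 of 72) and 30.3% for bHLH factors (40 of 132). F-box proteins reached 32.7% (213 of 652), and pectin and cell wall enzymes 28.4%. The marked MADS genes included *SEP3* (12.15, 11.08, 12.34 and 18.27) and *AP1* (12.56, 11.42, 13.8 and 21.24), which set floral organ identity. Among homeobox genes *WUS*, the organizer of the stem cell niche, had 12.15, 12.71, 12.13 and 19.09. The lowest shares were those of peroxidases (2.7%, 1 of 37) and receptor-like kinases (4.65%, 10 of 215). Of receptor-like kinases 3 of 215 were gained (1.4%, against 0.343% of protein-coding genes). Of these, 2 lay in the chromosome 4 stretch and shared a peak in each +MeJA list. Higher gained shares, from 1 or 2 genes each, were those of B3 factors (2.06%), auxin-responsive genes (1.96%), NAC factors (1.92%), UDP-glycosyltransferases (1.67%) and MYB factors (1.59%). Among families with 0 gained genes were F-box proteins (of 652), zinc finger proteins (of 439), MADS-box factors (of 120) and WRKY factors (of 72). At the share of 0.343%, families of these sizes would hold few gained genes or none, so the 0 does not set them apart. In none of the 23 families were 75 of the 94 gained protein-coding genes.

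Stable genes had to have a peak in each list, so their values were cut off at the limit of detection of that list. The lowest fold enrichment at stable genes was 3.7, 3.01, 3.42 and 6.34 in +MeJA 1, +MeJA 2, −MeJA 1 and −MeJA 2. Above these limits the size of the mark was compared between treatments. The part of the unequal limits in this comparison was not tested. After the median of each list had been subtracted on the log2 scale, 0 of 3338 genes differed in limma (Benjamini-Hochberg adjusted p at least 0.995). At an unadjusted p under 0.05 there were 79 genes (2.367%), 30 higher and 49 lower with MeJA. The centring removed a shift of −0.38 (log2) between the treatments, which came with the high values of −MeJA 2. The standard error of a gene's difference had a median of 0.21. In simulated data of this size 46 of 50 genes changed by 1 on the log2 scale were called, along with 9 of 3138 unchanged ones. The simulated noise was independent and equal in all lists, and other genes were given larger changes. The real lists differed from this setting, so these counts test the code and do not give the power of the comparison.

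Single genes nearest to a difference were of mixed function. *PAP11*, a purple acid phosphatase gene, had fold enrichments of 4.46 and 4.66 with MeJA and 8.64 and 14.16 without, a difference of −0.89 ± 0.20 (SE) on the centred log2 scale (limma, adjusted p = 0.995). At the glycine-rich protein gene *AT4G30450* the values were 4.65 and 4.72 against 13.7 and 10.62, a difference of −0.98 ± 0.28 with the same adjusted p in limma. The ranges of the treatments did not overlap at either gene. The other lowest were the EF-hand gene *AT1G21550*, *RKD3*, of a family of factors of the egg cell, and the glucosidase gene *BGLU24*. In the other direction, the LEA domain gene *AT2G42560* had 12.15 and 10.64 with MeJA and 7.91 and 11.84 without, a difference of 0.62 ± 0.19. It was followed by *AT5G03000*, *AT3G20555*, *AT5G38397* and the pseudogene *GA2OX5*. Over all stable genes, both centred +MeJA values were above both −MeJA values at 540 genes (16.18%) and below at 487 (14.59%).

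Across the 3338 genes, log2 fold enrichment correlated at r = 0.83 between the long-model lists and at 0.69 between the +MeJA lists, but at 0.52 between the short-model lists and 0.46 between the −MeJA lists. Genes are not independent replicates, and these coefficients are descriptions. With model length as a term in limma, 7 genes passed the threshold of 0.05, all lower with MeJA, and the lowest adjusted p was 0.00735.

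Jasmonate genes were sorted by role. Of 22 signalling genes, 1 was stable (4.55%), the transcription factor gene *MYC5* (8.51, 8.28, 7.99 and 12.49), which acts in stamens. *COI1*, *MYC2*, *MYC3*, *MYC4*, *NINJA* and most *JAZ* genes had no peak in any list. *JAZ10* (4.65, 5.03, 5.26 and 0) and *JAZ4* (5.38, 5.01, 5.86 and 0), which encode repressors, lacked a peak in −MeJA 2 alone. Of 15 biosynthesis genes 1 was stable (6.67%), the lipase gene *DAD1* (9.72, 7.52, 7.27 and 8.59), which releases the fatty acid precursor in anthers. *LOX2*, the lipoxygenase of leaf wounding, had 4.86, 3.61, 4.25 and 0. The cyclase genes *AOC1* and *AOC2*, near-identical neighbours whose values are uncertain, were missing in −MeJA 2 as well. None of 13 genes that write, read or remove H3K27me3 was gained, lost or stable. Of protein-coding genes 0.343% were gained and 10.8% stable, so 13 genes are too few to differ from these shares. Among the 13, *FIS2* (6.48, 5.02, 5.42 and 0) lacked a peak in −MeJA 2 alone.

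Genes that inactivate the hormone and genes that respond to it followed, and the difference in shares between the groups was not tested. Among 10 turnover genes, 6 were stable (60%, against 10.8% of protein-coding genes), and among 17 response genes 8 were (47.1%). *JOX3*, *JOX4* and *JOX1* encode oxygenases that hydroxylate jasmonic acid. *JOX3* had fold enrichments of 11.44 and 12.84 with MeJA and 11.14 and 12.39 without. *JOX4* had 10.25, 11.94, 14.42 and 16.46, and *JOX1* had 9.72, 7.57, 8.92 and 8.85. *CYP94B3*, which hydroxylates jasmonoyl-isoleucine, had 10.52, 7.19, 8.84 and 18.95, and its relative *CYP94B1* had 6.55, 8.01, 8.02 and 12.82. *ST2A*, the sulfotransferase gene of hydroxyjasmonate, had 8.36 and 9.36 with MeJA and 7.48 and 18.1 without. As deposited, both untreated values were above both treated ones at *JOX4* and *CYP94B1*. After centring of each list on the log2 scale these ranges overlapped, and at *JOX3* both treated values (0.36 and 0.54) were above both untreated ones (0.21 and −0.17), a difference of 0.43 ± 0.21 (SE). The same held for 16.18% of all stable genes.

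Response genes with the mark in all 4 lists were *VSP1* and *VSP2*, for vegetative storage proteins with acid phosphatase activity, the aminotransferase gene *TAT3*, the defensin genes *PDF1.2a* and *PDF1.2c*, the NAC gene *NAC055* and the stamen factors *MYB21* and *MYB24*. *VSP1* had 7.69 and 7.52 with MeJA and 7.88 and 15.93 without, and *VSP2* had 8.1 and 7.46 against 11.64 and 15.93, without overlap also after centring (a difference of −0.42 ± 0.19). Among the 16 stable jasmonate genes, *VSP2* lay below in this way, and *JOX3*, *DAD1* and *MYC5* lay above. Over all stable genes the shares were 14.59% below and 16.18% above. *TAT3* had 10.53 and 8.04 against 9.2 and 15.93. The near-identical copies *PDF1.2a* and *PDF1.2c* cannot be told apart with certainty. In limma, 1 of the 16 genes had an unadjusted p under 0.05. It was *DAD1*, with a difference of 0.50 ± 0.22 (SE) on the centred log2 scale and an adjusted p of 0.995. The median difference of the 16 genes was −0.01 (log2), against 0.00 for all stable genes.

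**Figure D4:**
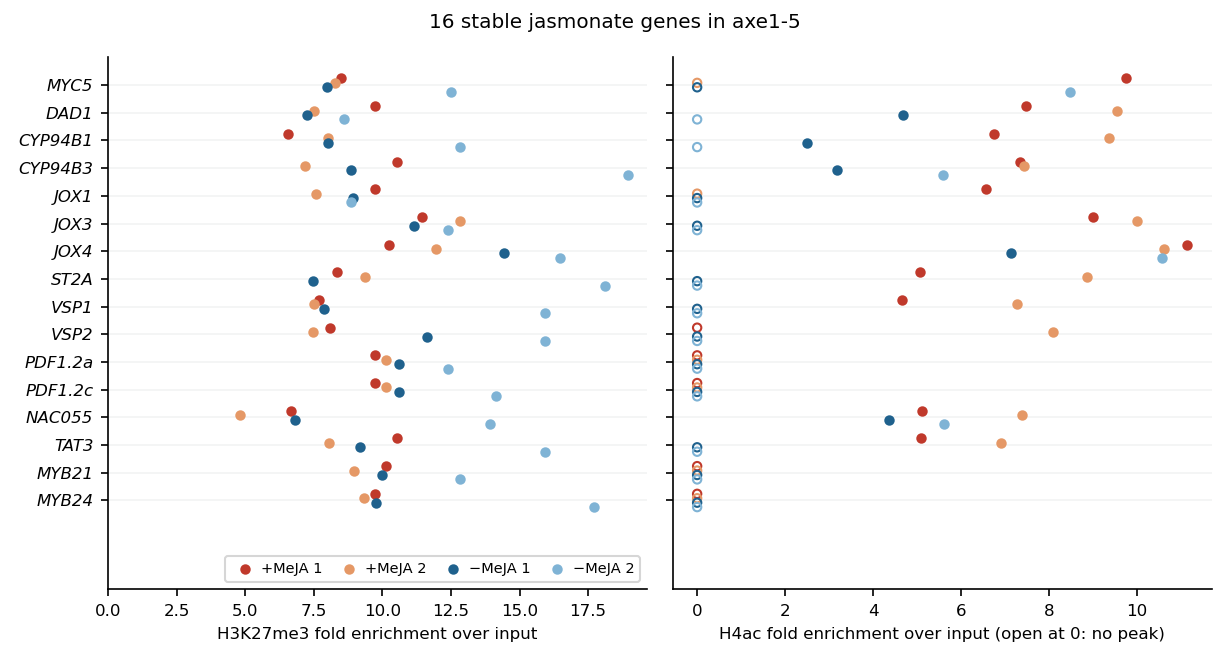
Fold enrichment over input of H3K27me3 (left) and H4ac (right) at the 16 stable jasmonate genes, 1 point per axe1-5 list, with open circles at 0 for lists without an H4ac peak. H3K27me3 is present in every list, with −MeJA 2 highest at most genes, whereas H4ac at JOX3, ST2A, VSP1 and TAT3 is present in both +MeJA lists and neither −MeJA list.

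At some of these marked genes, H4ac peaks were listed after MeJA and not without it. At *JOX3*, H4ac was listed at 9 and 10.01 in the +MeJA lists of *axe1-5* and in neither −MeJA list. The values were 5.07 and 8.87 at *ST2A*, 4.66 and 7.28 at *VSP1* and 5.09 and 6.92 at *TAT3*, again with no −MeJA peak. In these 4 of the 16 stable jasmonate genes, H3K27me3 and H4ac were thus both listed after treatment, in whole seedlings. Over all stable genes 209 had H4ac in both +MeJA lists and neither −MeJA list (6.26%), compared with 957 of all genes (2.53%) and 2 of the 116 gained genes, *AT4G17680* and *FAF3*. *PDF1.2a*, *PDF1.2c*, *MYB21* and *MYB24* had no H4ac peak in any *axe1-5* list. In WT, H4ac was likewise in both +MeJA and neither −MeJA list at *JOX3*, *ST2A*, *VSP1*, *DAD1* and *CYP94B1*. H4ac was in all 4 *axe1-5* lists at 22 of the 36 jasmonate genes without any H3K27me3 peak, and at 43.3% of all genes.

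**Figure D5:**
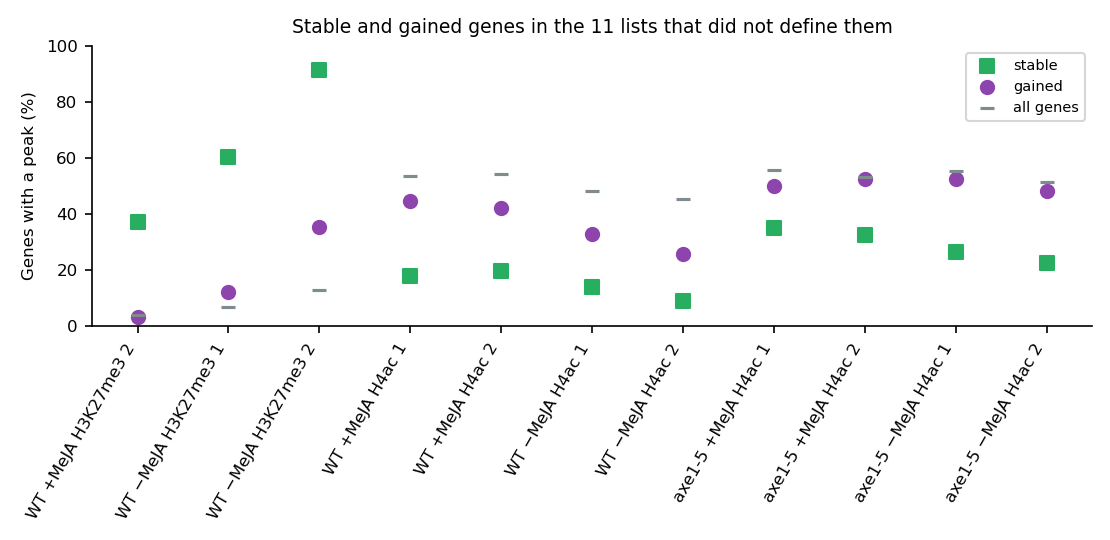
Share of stable genes (green squares), gained genes (purple circles) and all genes (grey dashes) with a peak in the 11 lists that did not define them, 1 column per list. Stable genes are marked in 91.1% in WT −MeJA 2 and are below all genes in every H4ac list, and gained genes are nearer to all genes.

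Lists that had no part in the choice of genes were used to describe these genes in WT. For H3K27me3, WT −MeJA 1 kept 1976886 tags and WT −MeJA 2 kept 8681380. All WT lists of this mark had short models (52, 54 and 56 bp). A gene without a listed peak there need not lack the mark, and the part of depth in the shares was not tested. In WT −MeJA 1 and WT −MeJA 2, 60.4% and 91.1% of stable genes had an H3K27me3 peak, compared with 6.74% and 13% of all genes. Gained genes had one in 12.1% and 35.3%. In the single WT +MeJA list, of only 577986 tags, the shares were 37.3% for stable, 3.45% for gained and 3.96% for all genes. A peak in 1 or both WT −MeJA lists was present at 44 gained genes (37.9%, against 13.4% of all genes), and 70 gained genes (60.3%) had none in any WT list. H4ac peaks in *axe1-5* were at 50% and 52.6% of gained genes with MeJA and 52.6% and 48.3% without, near the 55.6%, 53.1%, 55.2% and 51.4% of all genes. In WT, 53.7% and 54.2% of all genes had one with MeJA and 48.1% and 45.5% without, and gained genes had fewer, 44.8% and 42.2% and 32.8% and 25.9%. H4ac was in all 4 *axe1-5* lists at 44 of the 116 gained genes (37.9%, against 43.3% of all genes and 17.6% of stable genes).

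Several gained genes carried the mark in untreated WT. In 11 of them both WT −MeJA lists had a peak (9.48%, against 6.39% of all genes), for example *AT14A* (9.19 and 12.51), *AGP10* (10.07 and 7.22) and *EDF3* (9.19 and 9.46). At these genes, the lists without the mark were those of untreated *axe1-5* and that of WT +MeJA. The receptor-like kinases of the chromosome 4 cluster, *AT4G20645* and *AT4G20650*, had no peak in any WT list.

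The same sorting was made with regions in place of genes. Peaks of the 4 lists merged into 5574 regions, of which 2511 (45%) were stable, 97 (1.74%) gained and 4 lost. Gained regions had a median length of 1247 bp and stable regions of 4344 bp. Of the 97 gained regions, 91 overlapped a gene and 6 lay between genes.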

How the data were processed

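The members and the gene lists were chosen with earlier results of these data known. The data are 15 peak lists, of which 4 (H3K27me3 in *axe1-5*) define the genes described. Per the submitters' processing notes, the authors used Trimmomatic 0.36.5, Bowtie, TAIR10 and MACS 1.4.2. Per the file headers, the authors ran MACS on each library against an input, with a p-value limit of 1.00e-05, a band width of 300 bp and an effective genome size of 1.35e+08. The deposited count of a peak is its tags after removal of duplicates. The deposited score is 10 times the −log10 of the p-value. The deposited fold enrichment is the ratio of tags to the local background that MACS expects from the input, and the deposited FDR is a percent. Model length, depth, and the width and number of peaks differed together between lists. Fold enrichments of different lists need not be on 1 scale, and their part in the differences was not tested. The study's methods give default settings for Bowtie, and no filter on reads with several matches is named.

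Genes are those of the TAIR10.1 annotation, in which 2667 of 2668 loci with coordinates in the lists of genes given with the study overlapped the locus of the same name, and 0 peaks ran beyond a chromosome end. A gene's value is the highest fold enrichment of the peaks that overlap it. Named genes are the members of the fixed lists, the 10 gained and 10 lost genes with the highest lower score, the 5 of each with the highest lower fold enrichment, the 10 stable genes with the highest minimum and the 5 with the largest moderated t in each direction. Other names were chosen after their values were seen. Families were assigned by words in the annotated product.

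Stable genes were compared with limma 3.58.1 (R 4.3.3) on median-centred log2 values, with Benjamini-Hochberg adjustment and a threshold of 0.05, and the code was tested on simulated data. Values of lists were compared by exact permutation. P-values measure only the spread between these samples. Deviations of same-numbered lists correlated at r = −0.3384 and those of lists of like model length at 0.3384. By construction these are the same value with opposite signs, so they are not separate results. Replicate number and model length are crossed, and each was fitted as a term without the other. No label says that the numbers pair samples. Alternatives were other rules of overlap, score, FDR, gene type and peak number, lists of like model, each list left out and other fits. Python 3.11.15, numpy 2.4.6, pandas 2.3.3, scipy 1.17.1 and matplotlib 3.10.9 were used. WT +MeJA replicate 1 of H3K27me3, read files and microarrays were not analysed here.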

Additional observations from a re-analysis of the deposited data

Results flagged for a closer look

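In 11 of the 116 gained genes the lists of the genotypes stood in opposite directions: both *axe1-5* +MeJA lists and both WT −MeJA lists had an H3K27me3 peak, and neither the *axe1-5* −MeJA lists nor the WT +MeJA list had one. The genes were *AT14A*, *AT3G46890*, *AGP10* with the overlapping *AT4G09035*, *EDF3*, *AT2G19050*, *AT1G07407*, *AT1G02810*, *AT1G21050*, *AT1G24530* and *AT3G61270*. *AT3G46890*, for example, had fold enrichments of 7.29 and 8.04 in the *axe1-5* +MeJA lists and 8.76 and 9.26 in the WT −MeJA lists. The WT +MeJA side was 1 list of 577986 tags, in which 3.96% of all genes had a peak, and the difference between genotypes was not tested. Over all genes, 3.4% had a peak in both WT −MeJA lists and none in WT +MeJA, and 28.3% of stable genes did.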

How the results depend on the processing

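Gained, lost and stable genes numbered 116, 5 and 3338. With the summit inside the gene they numbered 269, 26 and 2065, and with at least 50% of the gene covered 73, 0 and 738. With 2000 bp upstream included there were 5135 stable genes. A score of at least 100 gave 0 lost and 1687 stable genes, and 3 lost genes had no peak of the other side within 1000 bp. Equal numbers of peaks gave 38 gained genes. The short-model pair gave 2492 gained and 109 lost genes, and the long-model pair 624, 1087 and 7466. With each list left out in turn, gained genes ranged from 173 to 2406, lost genes from 14 to 1049 and stable genes from 3347 to 5628. Without −MeJA replicate 1 there were 2406 gained and 37 lost genes, without −MeJA replicate 2 180 gained, 1049 lost and 5628 stable, without +MeJA replicate 1 551 gained and 14 lost, and without +MeJA replicate 2 68 lost. Leaving a list out loosens the rule by construction. The other causes were not tested. Leaving out the 22 gained genes near genes missing in −MeJA 1 alone, chosen after seeing the data, left 94.

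In limma the count of stable genes past the threshold was 0 (79 at an unadjusted p under 0.05), also with the replicate block (0, and 35 at an unadjusted p under 0.05), without centring (225) and without any single list (45 to 490). With short or long model as a term it was 7, all lower with MeJA. The crossed replicate block, added after seeing the data, is the same fit and gave 7. The totals that follow count this fit again. Under all alternatives together, 30 counts stayed within 1.5 times the main count and 26 did not. A count within this range need not hold the same genes. A score of at least 100 gave 152 gained genes, and only 37 of the 116 were among them. Of the 38 gained genes at equal numbers of peaks, 20 were among the 116. Among single named genes and values of lists, 828 values kept their call, 101 lost it and 4 gained it. A gained, lost or stable gene cannot drop out when a list is left out or 1 pair is used. Part of the 828 was thus fixed in advance and does not measure robustness. The 4 came from the fit with model length as a term and its repeat. The balance of gained against lost genes turned with the lists used: gained genes were more by the main rule (116 against 5), and lost genes were more in the long-model pair (624 against 1087) and without −MeJA replicate 2 (180 against 1049).

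Depth limits −MeJA 2 most: with 1439377 tags, a missing peak there can be a missing mark or a mark not detectable at this depth, which cannot be told apart. In −MeJA 1, the deepest list, the chromosome 4 stretch had no peak, while the 3 other lists marked it.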
